A study of Mus musculus with 3 samples.

Results

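The Ifitm1+ Ifitm2+ T cells were 170 of 13337 CD4+-sorted cells (1.27%) of kidney and spleen from 5 mice prone to lupus. They were chosen by measured counts: a cell belonged to the group when it held at least 1 UMI (unique molecular identifier, a tagged transcript) of Ifitm1, at least 1 of Ifitm2, and 0 UMIs of Foxp3, Havcr2, Cd8a and Cd8b1. The kidneys held 127 of them among 4979 cells and the spleens 43 among 8358. All mice were of the MRL/lpr strain, in which the lpr defect of the death receptor Fas lets T cells accumulate, and all carried Ezh2fl/fl, a loxP-flanked Ezh2 gene. KO1 and KO2 also carried CD4-Cre/ERT2, a Cre recombinase under the Cd4 promoter that acts once tamoxifen is given, whereas WT1, WT2 and WT3 (WT in the deposited tag key) had no Cre. Both genotypes received tamoxifen orally in corn oil at 300 mg/kg on 3 days a week, every other week, up to 24 weeks of age. Dosing began at 10 weeks of age in a preventative arm or 14 weeks in a therapeutic arm, and the arm of each mouse is not given in the labels. Ezh2 is the methyltransferase subunit of Polycomb repressive complex 2, and the series addresses what its loss in CD4+ T cells does to T cells of the lupus kidney. Live cells were stained for CD3, CD4, CD8a and the T cell receptor beta chain and sorted as CD4+ T cells, given 1 antibody tag per mouse and organ, pooled and sequenced from transcript 5′ ends.

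Ifitm1, Ifitm2 and Ifitm3 encode small membrane proteins that keep enveloped viruses from fusing with a cell's membranes, and many cell types raise them after interferon. Il18r1 encodes the ligand-binding chain of the interleukin-18 receptor, and Il7r the interleukin-7 receptor alpha chain, through which long-lived T cells receive survival signals. Memory T cells persist after an immune response and respond quickly on re-encounter, and some of them stay in tissues such as the kidney instead of recirculating.

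The 3 Ifitm genes lie side by side on mouse chromosome 7 (GRCm38.p6), with Ifitm2 at chr7:140954837-140959686, Ifitm1 at chr7:140967429-140969827 and Ifitm3 at chr7:141009590-141010744. Their promoters are shown because the rule and the label rest on these genes. Each window runs from 250 bases before to 50 bases after the RefSeq start (GRCm38.p6), 5′ to 3′ on the gene's own strand, and capitals mark matches to GAAANNGAAA, the letters used here for the interferon-stimulated response element (ISRE). Both strands were searched.
Ifitm1 (chr7:140967826-140968125, plus strand): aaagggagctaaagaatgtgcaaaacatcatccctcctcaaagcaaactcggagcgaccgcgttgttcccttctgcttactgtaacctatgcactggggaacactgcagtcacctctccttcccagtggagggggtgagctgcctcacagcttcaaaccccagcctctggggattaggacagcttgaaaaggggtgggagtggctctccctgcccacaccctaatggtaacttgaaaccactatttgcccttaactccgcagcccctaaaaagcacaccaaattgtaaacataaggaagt
Ifitm2 (chr7:140955912-140956211, minus strand): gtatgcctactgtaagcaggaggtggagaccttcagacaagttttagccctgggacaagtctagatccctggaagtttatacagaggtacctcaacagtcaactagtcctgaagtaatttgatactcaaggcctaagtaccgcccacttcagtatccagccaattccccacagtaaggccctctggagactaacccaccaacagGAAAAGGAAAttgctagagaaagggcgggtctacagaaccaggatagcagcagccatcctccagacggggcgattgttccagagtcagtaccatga
Ifitm3 (chr7:141010695-141010994, minus strand): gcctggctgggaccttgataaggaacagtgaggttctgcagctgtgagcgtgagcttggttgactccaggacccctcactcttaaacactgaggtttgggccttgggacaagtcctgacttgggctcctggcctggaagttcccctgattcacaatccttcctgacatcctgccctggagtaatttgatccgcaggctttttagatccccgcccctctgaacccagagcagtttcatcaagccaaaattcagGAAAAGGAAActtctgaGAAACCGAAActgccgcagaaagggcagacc

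The Ifitm2 window held 1 ISRE match, from base -46 to -37 counted from the start. The Ifitm3 window held 2, at bases 3 to 12 and 20 to 29 after the start, and the Ifitm1 window none. The Ifitm1 and Ifitm2 windows lie inside the gene spans given above. The bases before the outer 5′ end of these 2 spans were not searched, so an ISRE there would not be seen. A match to TTCNNNGAA, the letters of the gamma-activated site, occurred in Ifitm3 at bases 14 to 22, overlapping the second ISRE match, and in neither of the others. Of 32851 promoter windows of the same length, 1131 (3.44%) held the ISRE letters and 2726 (8.30%) the gamma-activated site letters. A match describes letters in a window and is not evidence of factor binding.

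Counts were deposited per cell, and the cells of each mouse and organ formed a block of barcodes led by its tag, with no barcode shared between blocks. Mouse and genotype rest on matching the numbered tags to the key in its order, which fits the organ of all 10 first-day blocks but is not stated in a file. Median UMIs of the Ifitm1+ Ifitm2+ cells were 2826.5, 2584, 4487.5, 5859 and 4959.5 in the kidneys of KO1, KO2, WT1, WT2 and WT3, against 3420, 3459, 3458, 3453 and 3157 in the other cells. In spleen they were 3413.5, 3614.5, 4229, 4125 and 6007, against 3646.5, 3555, 3302, 3432 and 3207. The summed counts of the group ranged from 4125 UMIs (the 1 spleen cell of WT2) to 469495 (kidney WT1), so zeros in the smallest sums carry little weight. Ezh2 of the other kidney cells was 70.8 and 55.2 CPM (a gene's UMIs scaled to the total of its sum) in KO1 and KO2 and 84.0, 154 and 138 in WT1, WT2 and WT3, and that of the spleen cells 52.5 and 56.1 against 78.4, 179 and 154, lower in both KO mice than in every WT mouse. The Ifitm1+ Ifitm2+ cells held 40 Ezh2 UMIs in kidney and 9 in spleen over all mice, too few to check the genotype within them.

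The Ifitm1+ Ifitm2+ cells made up a larger share of the kidney's T cells than of the spleen's in 5 of 5 mice. In kidney they were 8 of 717 cells in KO1 (1.12%), 4 of 219 in KO2 (1.83%), 94 of 1629 in WT1 (5.77%), 5 of 1467 in WT2 (0.341%) and 16 of 947 in WT3 (1.69%). The exact 95% binomial intervals (Clopper-Pearson, counting error only) were 0.483 to 2.19%, 0.500 to 4.61%, 4.69 to 7.02%, 0.111 to 0.794% and 0.969 to 2.73%. WT1 lay above the intervals of the other four and WT2 was lowest. In spleen the shares were 0.755% in KO1 (10 of 1324), 0.506% in KO2 (8 of 1580), 0.796% in WT1 (19 of 2386), 0.108% in WT2 (1 of 922) and 0.233% in WT3 (5 of 2146). The mean was 2.15% ± 2.11 (SD, n = 5) in kidney and 0.480% ± 0.306 (SD, n = 5) in spleen. The paired difference of 1.67 percentage points gave p = 0.0625 in an exact two-sided sign-flip permutation test, the smallest p that 5 mice allow. The median ratio of kidney to spleen was 3.61. When every cell was thinned to 2000 UMIs (484 kidney and 822 spleen cells with fewer were left out), the means were 1.94% and 0.413% and the difference 1.52 points, again higher in kidney in 5 of 5 mice (p = 0.0625, exact). Without WT1, which supplied 74.0% of the kidney and 44.2% of the spleen members, the difference was 0.842 points, still kidney above spleen in 4 of 4 mice (p = 0.125, exact, the smallest that 4 mice allow).

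**Figure D1:**
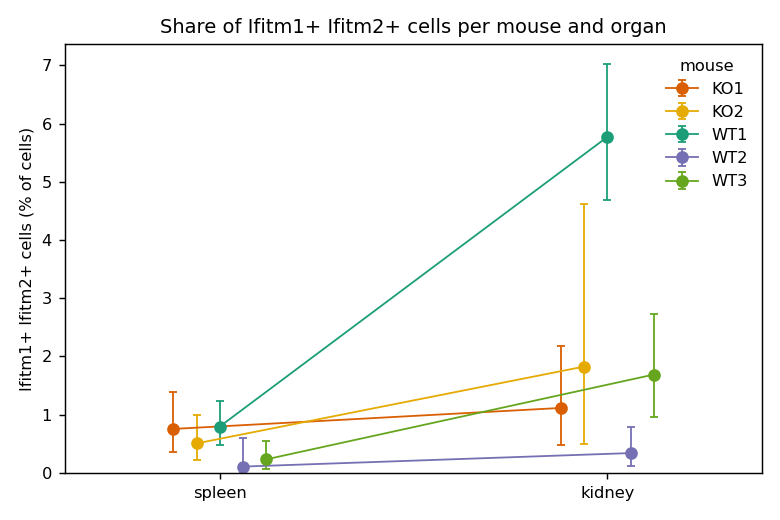
Share of Ifitm1+ Ifitm2+ cells (y axis, % of cells) in the spleen and kidney of each mouse, with lines joining the organs of 1 mouse and bars for 95% Clopper-Pearson intervals. Every line rises toward kidney, and kidney WT1 stands highest at 5.77%.

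The share did not separate the genotypes. In kidney it averaged 1.47% ± 0.503 (SD, n = 2) in the KO mice and 2.60% ± 2.83 (SD, n = 3) in the WT mice, a difference of -1.13 points (exact two-sided permutation p = 0.9). In spleen the means were 0.631% ± 0.176 (SD, n = 2) and 0.379% ± 0.367 (SD, n = 3), a difference of 0.252 points (exact permutation p = 0.5). Both adjusted p values over these 2 tests were 0.9 (exact permutation), and 2 mice against 3 cannot reach a p below 0.1. The kidney ranges of the genotypes overlapped, and without WT1 the kidney difference turned to 0.456 points in favour of KO (exact permutation p = 0.667).

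Free RNA in droplets can place a UMI in a cell that does not make it, so the pair of transcripts was counted in cells that should lack them. Among naive-type cells, which held Igfbp4, Lef1 and Ccr7 together, 0 of 130 in kidney (upper limit of the exact interval 2.80%) and 2 of 969 in spleen (0.206%) held both Ifitm1 and Ifitm2, at median depths of 4113 and 4152 UMIs. The pooled shares of the group, at median depths of 3286 and 3333.5 UMIs among cells lacking the 4 excluded genes, were 127 of 4179 (3.04%) and 43 of 6332 (0.679%). In spleen the share of WT2 lay below that of the naive-type cells and those of WT3 and KO2 within their interval, 0.0250 to 0.744%, so these 3 shares are not read as above background. In kidney only WT1 lay above the upper limit that 0 of 130 allows. The naive-type cells were pooled over mice and the background of each mouse was not measured. This comparison therefore cannot place the share of a single mouse above or at its background. The pair also occurred in cells that the rule left out, namely 10 of 178 Foxp3+ kidney cells (5.62%), 9 of 466 Havcr2+ kidney cells (1.93%) and 6 of 270 kidney cells with Cd8a or Cd8b1 (2.22%).

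Nearly all of the cells looked like T cells. Of the 170, 3 had no UMI of a CD3 or T cell receptor constant gene (1.76%), against 116 of 13167 other cells (0.881%), and 124 held a Cd4 UMI (72.9%, against 63.6%). Kidney KO2 stood apart: 2 of its 4 members lacked CD3 and receptor transcripts and held at least 5 UMIs of myeloid markers. The third such cell was 1 of the 10 spleen members of KO1, with 39 UMIs of myeloid markers. Markers of myeloid cells (20 genes, 6 of them at 0 in kidney members) summed to between 39.0 and 10933 CPM in the kidney members with a median of 125 CPM and the top value in KO2, against 185 to 278 CPM in the other kidney cells. In spleen they summed to 0 to 584 CPM (13 of 20 genes at 0) against 167 to 619 CPM. B and plasma cell markers were lower in the members, at 0 to 149 CPM against 560 to 1469 in kidney and at 0 to 195 against 577 to 1361 in spleen, with Cd79a and Ms4a1 at 0. Kidney tubule markers summed to 0 to 83.5 CPM in kidney members against 1.74 to 1848 CPM in the others. Markers of CD8 and NK cells summed to 0 to 178 CPM against 119 to 536 in kidney. Those of innate lymphoid cells summed to 0 to 334 CPM against 59.5 to 329 in kidney and 122 to 292 against 34.6 to 234 in spleen, with Ncr1, Il22 and Il13 at 0. No erythroid or platelet marker had a UMI in any member, nor did 7 endothelial and stromal markers, while Pecam1, Igfbp7 and Ehd3 of the same list were found in members and in other T cells (Pecam1 at 26.0 to 83.5 CPM in kidney members and 15.2 to 60.8 CPM in the others). Counts of called genes are also given below without cells holding markers of other types, while levels of single genes are those of all members. Without such cells (Ehd3, Ass1, Pecam1 and Igfbp7 not counted), the kidney share of KO2 was 1.07%. The mean kidney share was then 1.16% in KO and 3.01% in WT mice. Kidney lay above spleen by 1.68 points, again in 5 of 5 mice.

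The rule chose the cells on Ifitm1 and Ifitm2, so their levels are a description. Ifitm1 stood at 3043, 1168, 2603, 2557 and 2967 CPM in the kidney members of KO1, KO2, WT1, WT2 and WT3, and at 1411, 1617, 5131, 1939 and 3827 CPM in spleen. The other cells held at most 53.5 CPM in kidney and 3.36 CPM in spleen. Ifitm2 ranged from 1249 to 1721 CPM in kidney members and from 970 to 3662 CPM in spleen members. The median member held between 2.5 and 27 Ifitm1 UMIs, depending on mouse and organ, with a highest count of 77, so most were not at the threshold of 1 UMI.

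The label's remaining markers were compared with it and are likewise descriptions, without tests. Ifitm3 was 959, 83.5, 515, 1427 and 742 CPM in kidney members (KO1, KO2, WT1, WT2, WT3) against 49.2, 36.0, 102, 24.8 and 20.9 CPM in the other cells. In spleen Ifitm3 was 414, 305, 955, 242 and 537 CPM against 15.3, 6.89, 25.2, 7.07 and 14.5 CPM. Ifitm3 was thus higher in the members of every mouse, by the least in kidney KO2, where it rested on 1 UMI. Il18r1 was 208, 250, 290, 178 and 286 CPM against 148, 166, 126, 20.5 and 33.0 CPM in kidney. In spleen Il18r1 was 268, 366, 404, 485 and 537 CPM against 60.5, 78.8, 55.5, 3.66 and 15.5 CPM. The Il18r1 ranges of members and others did not overlap in either organ. Il7r was higher in the kidney members of 5 of 5 mice (119 to 792 CPM against 69.1 to 416 CPM) and in the spleen members of all but WT2, whose 1 cell had none. Dtx1, a ubiquitin ligase that regulates Notch, did not follow the label evenly: it was 83.4, 0, 49.0, 59.5 and 0 CPM in kidney members against 26.2, 47.3, 29.2, 12.6 and 10.0 CPM in the others. Cd44, the usual surface marker of antigen-experienced mouse T cells, was higher in the kidney members of 1 of 5 mice and in the spleen members of 4 of 5. The Ifitm3, Il18r1 and Il7r levels go with the label, and Dtx1 and Cd44 go with it only in some mice, so the cells are named here by their 2 defining transcripts.

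Cells just inside and just outside the threshold were set side by side among cells lacking the 4 excluded genes. Pooled over mice, Il18r1 was 69.2 CPM in the 3750 kidney cells with neither transcript, 166 CPM in the 264 with Ifitm2 alone and 184 CPM in the 38 with Ifitm1 alone. It was 251 CPM in the 6 cells with 1 UMI of each, 287 CPM in the 36 with 3 to 9 UMIs in all and 278 CPM in the 85 with 10 or more. In kidney, Ifitm3 was 150 CPM (3 UMIs) with 1 UMI of each and 634 CPM with 10 or more. Kidney Cd7 was 50.1 CPM (1 UMI) and 197 CPM in these classes. In spleen Cd7 went the other way, at 1080, 447 and 315 CPM from the threshold class to the top class. All 7 Cd7 UMIs of this threshold class lay in 1 of its 2 cells, that of KO1. Spleen Il18r1 was 33.2 CPM with neither transcript, 85.4 CPM with Ifitm2 alone and 422 CPM in the top class. In the 25 spleen cells with Ifitm1 alone it was 45.5 CPM (4 UMIs), and Gzmk was 398 CPM against 495 CPM with neither. The classes differ in their mix of mice: WT1 supplied 1109 of the 3750 cells with neither transcript, 154 of the 264 with Ifitm2 alone and 67 of the 85 in the top class, and the genes' levels differed between mice. Within the kidney of WT1, Gzmk was 224 CPM in cells with neither transcript, 21.3 CPM with Ifitm2 alone, 77.4 CPM with Ifitm1 alone (6 UMIs) and 43.6 CPM in the top class. Slco3a1 was 101, 118, 194 and 241 CPM in the same classes of WT1, and Il18r1 111, 203, 142 and 293 CPM. Gzmk was also lower with Ifitm2 alone than with neither transcript in the kidneys of KO1 (0 against 66.8 CPM), KO2 (18.8 against 127 CPM), WT2 (226 against 1295 CPM) and WT3 (76.0 against 1220 CPM).

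**Figure D2:**
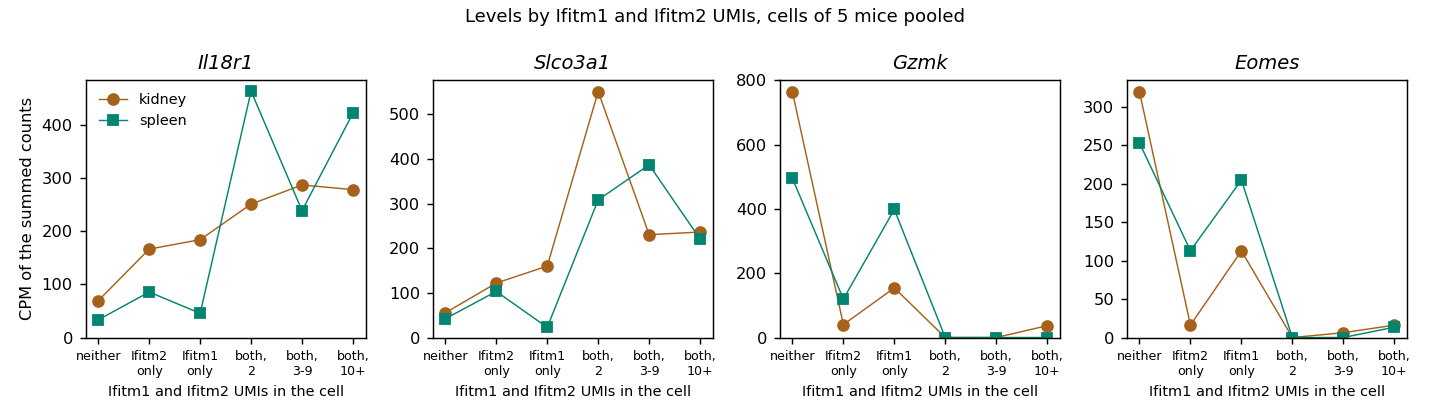
CPM (y axis) of the counts summed over all kidney or all spleen cells in 6 classes of Ifitm1 and Ifitm2 UMIs (x axis), cells of 5 mice pooled, whose mix differs between classes. Kidney Slco3a1 goes from 55.3 CPM in cells with neither transcript to 237 CPM in cells with 10 or more UMIs of both, and kidney Gzmk from 764 to 36.7 CPM.

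To ask which other genes set the Ifitm1+ Ifitm2+ cells apart, their summed counts were compared with those of all other cells of the same mouse and organ by the edgeR quasi-likelihood test, with the mouse as a block and Benjamini-Hochberg adjustment at 0.05 over all genes tested. The test planned for sums of at least 10 cells left WT1 and WT3 in kidney and KO1 and WT1 in spleen. It called 171 of 9040 genes in kidney (1.89%), of which 80 were higher (0.885%) and 91 lower (1.01%), and 59 of 9931 in spleen (0.594%), with 13 higher (0.131%) and 46 lower (0.463%). With all 5 mice it called 140 of 7509 genes in kidney (1.86%), 42 higher (0.559%) and 98 lower (1.31%), and 137 of 10182 in spleen (1.35%), 40 higher (0.393%) and 97 lower (0.953%). The planned fit had 2 mice per organ and 1 residual degree of freedom, so the fit on all 5 mice was added after seeing the counts. Its smallest member sum was 1 cell (spleen WT2). The values named below are those of the 5-mouse fit unless said otherwise. Of its calls, 49 were shared by the organs in the same direction, 35% of the kidney calls and 35.8% of the spleen calls, with 12 higher and 37 lower. Adjusted p values below are from these edgeR fits, and log2 differences are members minus others with their standard errors.

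The transporter gene Slco3a1, which encodes an organic anion carrier, was higher in the members of every mouse in both organs. It stood at 250, 167, 256, 119 and 247 CPM in kidney members (KO1, KO2, WT1, WT2, WT3) against 88.6, 99.1, 96.1, 14.2 and 27.4 CPM in the others. In spleen Slco3a1 was 146, 275, 306, 242 and 235 CPM against 65.3, 64.1, 54.0, 4.39 and 21.6 CPM. No member sum reached down to the others in either organ. The log2 difference of Slco3a1 was 1.88 ± 0.34 in kidney (adjusted p = 1.23e-05) and 2.14 ± 0.44 in spleen (adjusted p = 0.000359). Without WT1 it was 2.07 in kidney (adjusted p = 0.00119) and 1.92 in spleen, where the call was lost (adjusted p = 0.106).

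Ly6c2, whose product Ly6C is carried by memory and effector T cells, was 167, 167, 234, 327 and 156 CPM in kidney members against 81.9, 149, 81.1, 151 and 40.3 CPM in the others. In spleen it was 243, 305, 220, 0 and 571 CPM against 52.7, 63.6, 79.5, 98.5 and 39.2 CPM. The kidney ranges did not overlap, and in spleen only the 1 cell of WT2 lay below. Ly6c2 rose by 1.24 ± 0.33 in kidney (adjusted p = 0.0152) and 1.90 ± 0.41 in spleen (adjusted p = 0.000926). Without WT1 the kidney value was 1.01 (adjusted p = 0.339) and the spleen value 2.00 (adjusted p = 0.0338).

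Yes1, a Src-family kinase, was 41.7, 83.5, 61.8, 59.5 and 52.0 CPM in kidney members against 17.8, 25.9, 16.0, 6.12 and 10.0 CPM in the others, again without overlap. It rose by 2.07 ± 0.44 in kidney (adjusted p = 0.000428) and by 3.35 ± 0.75 in spleen (adjusted p = 0.00192), where members held 1 to 3 UMIs per mouse. Hs3st3b1, a heparan sulfate sulfotransferase, rose by 1.86 ± 0.42 and 2.34 ± 0.53 (adjusted p = 0.00119 and 0.00209). Without WT1, the kidney calls of Yes1 and Hs3st3b1 were lost (adjusted p = 0.312 and 0.408), as was that of Hs3st3b1 in spleen (adjusted p = 0.424). The stress-induced transcription factor Atf3 rose by 1.4 ± 0.33 in kidney (adjusted p = 0.00226) and 2.65 ± 0.44 in spleen (adjusted p = 2.36e-06), and both calls remained without WT1 (adjusted p = 0.0196 and 0.000396). Atf3 was 511, 61, 98.0, 0 and 906 CPM in spleen members against 59.0, 48.4, 28.1, 14.6 and 22.4 CPM, so KO1 and WT3 carried most of its size. Myc rose by 1.43 ± 0.36 and 1.43 ± 0.42 (adjusted p = 0.00533 and 0.0436), and without WT1 by no called amount (1.44 and 1.22, adjusted p = 0.278 and 0.438).

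Some rises passed the test in 1 organ. In kidney, Fgfr1, a fibroblast growth factor receptor, was 208, 167, 74.5, 59.5 and 39.0 CPM in members against 19.5, 16.9, 16.5, 1.32 and 4.12 CPM, a rise of 2.76 ± 0.43 (adjusted p = 6.29e-08) that stayed called without WT1 (3.27, adjusted p = 0.00217). Klrk1, which encodes the activating receptor NKG2D, rose by 2.25 ± 0.39 (adjusted p = 4.35e-06) on UMIs of the WT mice alone, since KO1 and KO2 members had none. Il12rb2, a chain of the interleukin-12 receptor, rose by 2.48 ± 0.42 (adjusted p = 2.11e-06), with 446 CPM in WT2 (5 cells), 38.3 in WT1, 39.0 in WT3 and 0 in both KO mice. Cd7, a T cell surface protein, rose by 1.47 ± 0.34 (adjusted p = 0.00165), and without WT1 the call was lost (1.39, adjusted p = 0.154). The alternative test DESeq2, run on the same 5 kidneys, called Fgfr1 but not Klrk1, Il12rb2 or Cd7. Of the rises described before these, DESeq2 called Slco3a1, Ly6c2, Yes1, Hs3st3b1 and Atf3 in both organs, and Myc in spleen only. In spleen the members held 2 Fgfr1, 8 Klrk1 and 4 Il12rb2 UMIs in all, and Cd7 differed by 1.26 ± 0.41 (adjusted p = 0.0974). None of these 4 genes was called in the test of the difference between organs.

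In spleen the rises included genes of the type 1 helper programme and of adhesion. Il18rap, the accessory chain of the interleukin-18 receptor, was 122, 61, 98.0, 242 and 33.6 CPM in members against 14.3, 12.2, 18.4, 8.29 and 15.2 CPM in the others. Its ranges did not overlap and it rose by 2.29 ± 0.54 (adjusted p = 0.00371), beside the levels of its partner Il18r1 given above. Tbx21, the gene of the type 1 helper regulator T-bet, was 122, 153, 147, 485 and 269 CPM against 35.3, 34.0, 65.5, 40.7 and 33.5 CPM and rose by 1.73 ± 0.44 (adjusted p = 0.0122). Itgb1, the integrin beta 1 chain, was 1241, 1251, 882, 727 and 470 CPM against 261, 323, 364, 53.2 and 102 CPM and rose by 1.68 ± 0.43 (adjusted p = 0.0116). The galectin gene Lgals3 was 219, 275, 392, 242 and 201 CPM against 27.1, 38.0, 56.3, 62.7 and 43.5 CPM and rose by 2.31 ± 0.42 (adjusted p = 2.39e-05). For each of these 4 genes every spleen member sum lay above every sum of other cells. Without WT1 Lgals3 stayed called (2.06, adjusted p = 0.035), and Il18rap (2.16), Tbx21 (1.93) and Itgb1 (1.78) did not (adjusted p = 0.242, 0.0964 and 0.104). In kidney, Itgb1 was 1542, 2003, 1133, 327 and 651 CPM against 734, 731, 919, 204 and 218 CPM, higher in 5 of 5 mice but with overlapping ranges and a difference of 0.80 ± 0.33 (adjusted p = 0.315). The kidney differences of Tbx21 (1.02 ± 0.34, adjusted p = 0.104), Lgals3 (0.82 ± 0.35, adjusted p = 0.349) and Il18rap (0.85 ± 0.45, adjusted p = 0.563) also missed the threshold with 5 mice. With WT1 and WT3 alone, Tbx21, Itgb1 and Lgals3 were called in kidney (1.25, 1.05 and 1.29, adjusted p = 0.00944, 0.00944 and 0.00536).

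**Figure D3:**
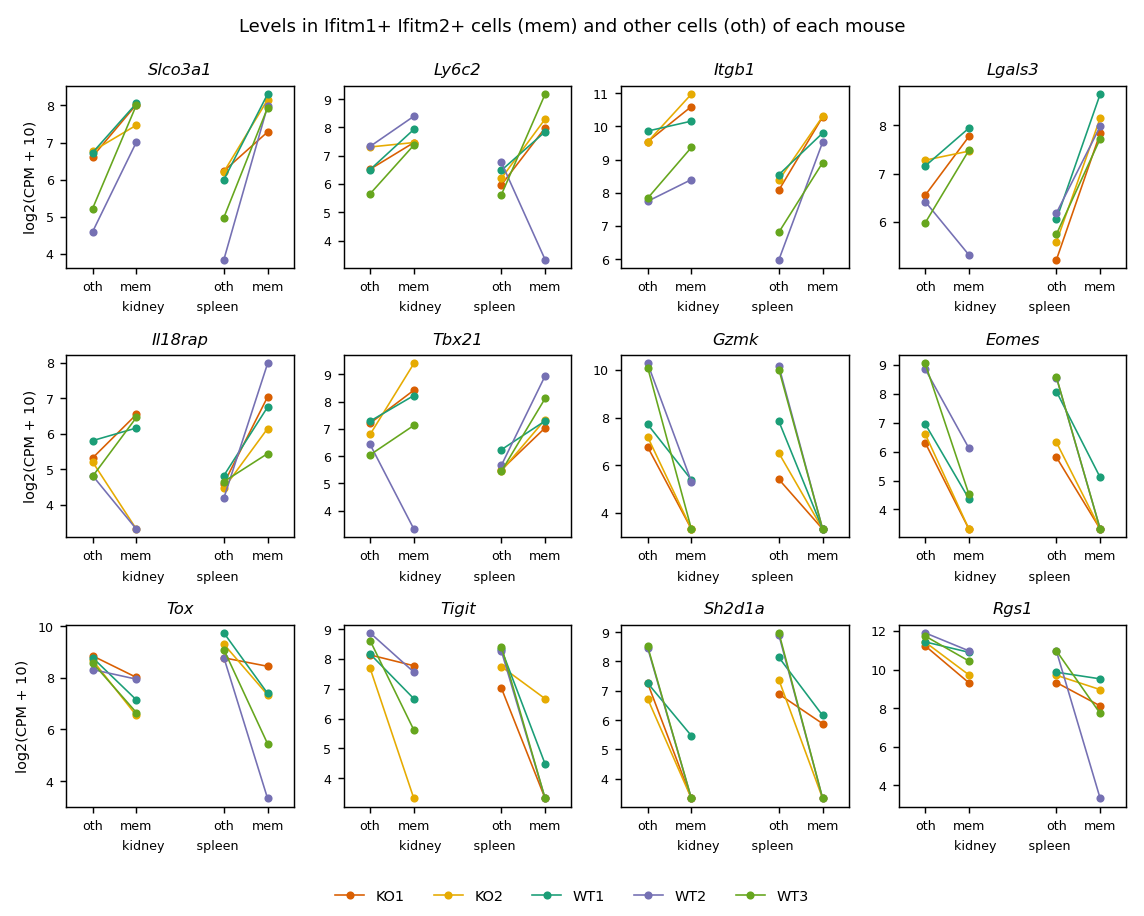
log2(CPM + 10) (y axis) of 12 genes in the other cells (oth) and Ifitm1+ Ifitm2+ cells (mem) of each mouse, kidney on the left and spleen on the right of each panel, 1 line per mouse. Slco3a1 rises and Gzmk falls in every mouse and organ, with Gzmk at 0 UMIs in all spleen members.

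Gzmk and Eomes, transcripts of cytotoxic-type CD4+ T cells, were nearly missing from the members. Gzmk, which encodes granzyme K, was 0, 0, 31.9, 29.7 and 0 CPM in kidney members (KO1, KO2, WT1, WT2, WT3) against 99, 136, 200, 1227 and 1090 CPM in the others. It fell by 3.98 on the log2 scale (SE 0.49, adjusted p = 5.69e-13). The 43 spleen members held no Gzmk UMI, against 32.4, 81.1, 219, 1126 and 1025 CPM in the others, and taking 3 UMIs over the pooled members as the floor, with the other cells of each mouse weighted by that mouse's member UMIs, Gzmk was at least 19.0-fold lower (edgeR adjusted p = 4.8e-09). Eomes, the T-box factor that goes with Gzmk in CD4+ T cells, was 0, 0, 10.6, 59.5 and 13 CPM in kidney members against 69.4, 87.8, 114, 455 and 521 CPM. In spleen Eomes was 0, 0, 24.5, 0 and 0 CPM against 46.0, 70.0, 261, 367 and 372 CPM. The Gzmk and Eomes ranges did not overlap in either organ. The log2 difference of Eomes was -3.70 ± 0.52 in kidney (adjusted p = 1.05e-09) and -4.59 ± 0.82 in spleen (adjusted p = 1.74e-05). Both genes stayed called without WT1 in both organs, with adjusted p between 2.3e-12 and 0.000958.

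Genes of T cell help and inhibition fell as well. Sh2d1a, the adaptor SAP that T cells need to help B cells, was 0, 0, 34.1, 0 and 0 CPM in kidney members against 143, 95.7, 143, 342 and 355 CPM, and 48.7, 0, 61.2, 0 and 0 CPM in spleen against 108, 155, 272, 466 and 493 CPM. No member sum reached the others, and Sh2d1a differed by -3.04 ± 0.47 and -3.16 ± 0.62 (adjusted p = 6.29e-08 and 0.000126). The inhibitory receptor gene Tigit was 208, 0, 91.6, 178 and 39.0 CPM in kidney members against 271, 196, 277, 459 and 382 CPM, lower in 5 of 5 mice with overlapping ranges. Tigit differed by -1.72 ± 0.38 in kidney and -3.80 ± 0.68 in spleen (adjusted p = 0.000866 and 1.74e-05). Tox, a regulator of exhausted T cells, differed by -1.47 ± 0.36 and -2.25 ± 0.49 (adjusted p = 0.00427 and 0.00138). Lag3 differed by -2.13 ± 0.48 and -3.78 ± 0.67 (adjusted p = 0.00129 and 1.57e-05), although kidney WT2 members had 268 CPM against 116 CPM. Rgs1, a regulator of G protein signalling linked to retention in tissue, was 625, 835, 1891, 1992 and 1379 CPM in kidney members against 2388, 2728, 2752, 3807 and 3396 CPM. Its kidney ranges did not overlap, and it differed by -1.39 ± 0.38 and -1.94 ± 0.49 (adjusted p = 0.0155 and 0.0111). Without WT1 Sh2d1a, Tigit and Rgs1 stayed called in both organs, whereas Tox (adjusted p = 0.0779 in kidney and 0.0569 in spleen) and Lag3 (adjusted p = 0.724 and 0.0548) did not. DESeq2 with all mice called Sh2d1a, Tigit and Tox in both organs, Rgs1 in kidney only and Lag3 in spleen only.

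Because the rule took cells with Foxp3, Havcr2, Cd8a or Cd8b1 out of the group and left them among the others, each comparison was repeated with those cells gone from both sides. It called 110 of 6933 kidney genes (1.59%; 0.519% higher and 1.07% lower) and 130 of 9610 spleen genes (1.35%; 0.406% higher and 0.947% lower). Of the 140 kidney calls 105 remained (75%), and of the 137 spleen calls 113 remained (82.5%). Slco3a1, Ly6c2, Yes1, Atf3, Hs3st3b1, Gzmk, Eomes, Sh2d1a, Tigit and Tox were called in both organs either way. Lag3 in kidney (-1.54, adjusted p = 0.0529), and Rgs1 (-1.64, adjusted p = 0.0552) and Myc (1.38, adjusted p = 0.0597) in spleen, were not. Removing cells with at least 2 UMIs of markers of other cell types from both sides called 66 kidney and 89 spleen genes. That planned rule also marked many T cells, and with 4 markers that T cells hold (Ehd3, Ass1, Pecam1 and Igfbp7) not counted, a change made after seeing the data, 117 and 118 were called. The latter left 9 of the 12 shared rises called in both organs (Adam8, Atf3, Dkkl1, Hs3st3b1, Ly6c2, Pard3, Slco3a1, Tcrg-V1 and Yes1) and 32 of the 37 shared falls. The 3 rises lost were Il1b, Qpct and Myc, and the falls lost were Cd74, Cd81, Gm30211, H2-Aa and Igkc. Igkc is among the B and plasma cell markers by which cells were removed. With WT1 left out, 11 of the 49 genes stayed called in both organs: Atf3 and Tcrg-V1 rose and Ctla2a, Eomes, Gzmk, Igkc, Penk, Rgs1, Rgs16, Sh2d1a and Tigit fell.

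Gene lists were read by how many tested members were called with 5 mice, and by their median log2 difference beside the median of all genes, -0.19 in kidney and -0.55 in spleen. Of cytotoxic effector genes, 17 were tested in each organ. In kidney Klrk1 rose and 6 fell (Gzma, Gzmk, Prf1, Ccl4, Ccl5 and Eomes; list median -0.79). In spleen Ctsw rose and 6 fell (Gzmb, Gzmk, Prf1, Ccl4, Ccl5 and Eomes; list median -0.82). The chemokine gene Ccl5, however, was higher in the spleen members of KO1 (3090 CPM against 1061 CPM). Of inhibitory receptor genes 5 of 14 fell in kidney (Lag3, Tigit, Tox, Tox2 and Cd200; median -0.31) and 4 of 15 in spleen (median -1.41), and none rose. With the excluded cells gone from both sides these counts were 3 of 14 and 4 of 14. Of follicular helper genes 5 of 12 fell in kidney (median -1.31) and 5 of 17 in spleen (median -2.23), among them Sh2d1a, Tox2 and Rgs16, and none rose. Of regulatory T cell genes 2 of 12 fell in kidney and 5 of 15 in spleen (medians -0.65 and -2.63). These fell to 1 of 10 and 2 of 14 once cells with any of the 4 excluded genes were gone from both sides. Il2ra was there the 1 rise, in kidney.

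Handling-stress genes moved with the group in the planned kidney fit (WT1 and WT3). There 3 of 12 heat shock and dissociation genes rose (Hspa1a, Hspa1b and Dnajb1; median 0.63 beside -0.07 for all genes), as did 8 of 25 immediate early genes, while 1 fell. Hspa1a was 500, 83.5, 326, 29.7 and 2771 CPM in kidney members of KO1, KO2, WT1, WT2 and WT3 against 332, 420, 190, 189 and 548 CPM in the others, so WT3 was highest and KO2 and WT2 lay below their others. With 5 mice none of 12 heat shock genes was called in kidney (median 0.02) or of 13 in spleen (median -0.78), and of 24 immediate early genes in kidney Atf3 and Myc rose and Nr4a2 fell. The part of handling stress in the rises above was not tested.

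Among genes of memory and survival the fits differed. With 5 mice, of 17 tested in kidney Ly6c2 rose and Cd27 fell, and the same was found among 18 in spleen (medians -0.13 and -0.07). In the planned kidney fit Bcl2, which protects from apoptosis, Id3 and Ly6c2 rose and Cd27 fell among 18. Cd27, a co-stimulatory receptor, differed by -1.66 ± 0.38 and -1.96 ± 0.52 (adjusted p = 0.00129 and 0.0181). DESeq2 with 5 mice called Cd27 in kidney only. Of 12 type 1 helper genes in each organ Il12rb2 rose in kidney and Tbx21 and Il18rap in spleen, while 2 fell in each (medians 0.07 and -0.12). Of 16 naive and recirculation genes none was called in kidney with 5 mice, whereas S1pr1 and Klf2 of 14 rose in the planned kidney fit, and 3 of 17 fell in spleen (among them Lef1 and Igfbp4; medians -0.14 and -1.21). Igfbp4 was 24.3, 61, 0, 0 and 0 CPM in spleen members against 1458, 828, 49.5, 28.8 and 18.1 CPM, so the others' level, and the size of the fall, was set by the KO mice. It fell by 5.19 (SE 0.85, adjusted p = 1.41e-06). Of 19 tissue residency genes tested in each organ, Itga1 rose and Prdm1 and Rgs1 fell in kidney, and Itgb1, Cxcr6 and Cdh1 rose and Rgs1 and Xcl1 fell in spleen (medians -0.14 and -0.22). Of 14 cell cycle genes 4 fell in kidney, Mki67, Top2a, Pclaf and Ube2c (median -1.85), and 1 of 16 in spleen (median -0.39), where the 5 members of WT3 held 20 Mki67 UMIs and the rest 1. None of 11 genes of Polycomb repressive complex 2 was called in either organ (medians -0.52 and -0.76).

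Neither interferon list held a called gene in the 5-mouse fit, in cells chosen for at least 1 UMI each of Ifitm1 and Ifitm2. Of 39 type I interferon response genes listed, 38 were in the files, 25 were tested in kidney and 29 in spleen, and none was called in either direction with 5 mice. With the 2 mice of the planned test none of 28 and 29 was called. Their median log2 difference was -0.27 in kidney and -0.47 in spleen, beside -0.19 and -0.55 for all genes. Isg15, a ubiquitin-like protein induced by interferon, was 41.7, 584, 70.3, 89.2 and 65.1 CPM in kidney members against 88.6, 85.6, 97.3, 92.4 and 99.5 CPM in the others. Only KO2, where 2 of 4 members held myeloid transcripts, lay above. Of 24 interferon-gamma response genes tested in each organ none was called with 5 mice (medians -0.66 and -0.46), and 1 rose in kidney with 2 mice. Among the other Ifitm family genes, only Ifitm10 was high enough to be tested. It was 83.4, 0, 21.3, 0 and 13 CPM in kidney members against 25.5, 23.6, 25.2, 33.7 and 23.3 CPM and was not called, while Ifitm6 and Ifitm7 had no UMI in any member and Ifitm5 had 1. Of the type I interferon list, 18 of 30 promoters with a RefSeq window held the ISRE letters (60%), as did 2 of the 7 Ifitm promoters (28.6%), those of Ifitm2 and Ifitm3 shown above.

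Whether the difference between members and others itself differed between kidney and spleen was tested by an interaction term over all 5 mice. It called 4 of 8843 genes (0.0452%), 2 in each direction (0.0226%). S100a8 and S100a9 were relatively higher in kidney members, and Cenpf and Ube2c in spleen members. None of the other genes described above passed, for example Slco3a1 (-0.34 ± 0.51), Lgals3 (-1.64 ± 0.51, adjusted p = 0.55), Cxcr6 (-1.91 ± 0.59, adjusted p = 0.55) or Il18rap (-1.55 ± 0.61, adjusted p = 0.808), so a rise called in 1 organ is not shown to be absent from the other. All S100a8 and S100a9 UMIs of members (33 and 58) came from kidney KO2, whose members included the 2 cells with myeloid markers. With the cells of other types removed by the planned rule, no interaction was called, and with the 4 markers held by T cells not counted 5 were, 1 higher in kidney and 4 lower.

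Members of the kidney and of the spleen were then compared directly, with the mouse as a block. Of 659 genes tested 34 were called (5.16%), 32 higher in kidney (4.86%) and 2 lower (0.303%). The planned restriction to sums of at least 10 cells would have left WT1 alone, so all 5 mice entered. Vps37b, a component of the sorting machinery ESCRT-I, was 1334, 1419, 1233, 981 and 911 CPM in kidney members (KO1, KO2, WT1, WT2, WT3) and 292, 366, 257, 0 and 134 CPM in spleen members. The organs did not overlap and Vps37b rose by 2.28 ± 0.36 in kidney (adjusted p = 7.08e-05). In the other cells it was 1240, 1486, 1032, 896 and 1060 CPM in kidney and 370, 415, 121, 142 and 119 CPM in spleen, and its interaction was -0.07 ± 0.56, so the organ difference was of like size in both classes. Neurl3, a ubiquitin ligase, was 83.4, 584, 466, 357 and 403 CPM in kidney members and 0, 0, 49.0, 0 and 67.1 CPM in spleen members, and rose by 3.55 ± 0.68 (adjusted p = 0.000718). The receptor signal genes Nr4a1 and Nr4a3 rose by 1.85 ± 0.36 and 2.12 ± 0.46 (adjusted p = 0.000718 and 0.00227). Stat4, which carries interleukin-12 signals, rose by 1.86 ± 0.46 (adjusted p = 0.0085) and Cd274, which encodes PD-L1, by 1.94 ± 0.55 (adjusted p = 0.024). Rgs1 rose by 1.66 ± 0.37 (adjusted p = 0.00315), although in each organ it was lower in the members than in the others.

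The 2 genes lower in kidney members were Jun and Fos, subunits of AP-1. Jun was 125, 167, 164, 149 and 1392 CPM in kidney members and 1436, 915, 502, 485 and 3458 CPM in spleen members, lower in kidney in 5 of 5 mice with WT3 the highest in both organs. The kidney minus spleen difference was -1.89 ± 0.36 for Jun and -1.5 ± 0.31 for Fos (adjusted p = 0.000718 and 0.00155). The kidneys were digested with enzymes at warmth and the spleens were pressed through a strainer, so tissue and preparation cannot be told apart in these organ differences. Of 8 tissue residency genes tested 4 rose in kidney members (Rgs1, Rgs2, Vps37b and Nr4a1), with a list median of 1.16 beside -0.01 for all genes. Of 19 immediate early genes 5 rose and 2 fell. Without WT1 8 genes were called, without WT3 13 and without KO1 20.

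**Figure D4:**
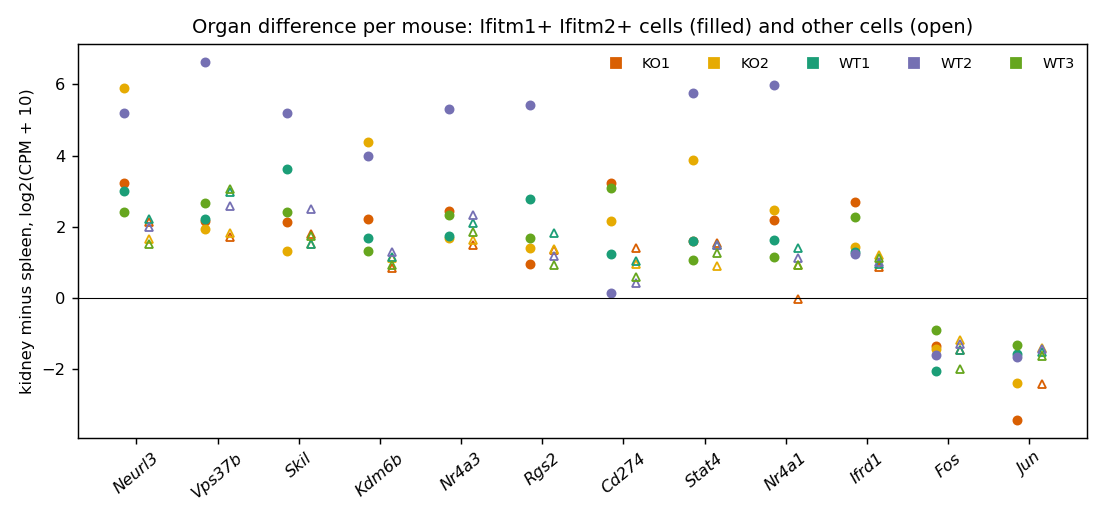
Kidney minus spleen difference of log2(CPM + 10) (y axis) for 12 genes called between kidney and spleen members, filled circles for Ifitm1+ Ifitm2+ cells and open triangles for the other cells of the same mouse. The other cells lie on the same side of 0 as the members for these genes, apart from Nr4a1 in KO1, which lies near 0.

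Between KO and WT, no gene of the members was called by the edgeR test in either organ. In kidney 0 of 503 genes passed (0.0%; 22 had an unadjusted p under 0.05, and DESeq2 called 0), and in spleen 0 of 463 (0.0%; 9 with an unadjusted p under 0.05, and DESeq2 called 0). Itgb1 differed by 1.30 ± 0.48 in kidney and 0.85 ± 0.51 in spleen (KO minus WT, adjusted p = 0.753 and 0.995), and Rgs1 by -1.23 ± 0.35 in kidney (adjusted p = 0.753). With 8 and 4 kidney members and 10 and 8 spleen members in the 2 KO mice, these data bound the genotype effect on the group only loosely.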

How the data were processed

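The authors deposited 1 matrix of whole UMI counts per organ, made with Cell Ranger 7.1.0 per the file headers. The submitters' processing notes also name Seurat 5.0.1 and mm10 (GRCm38). No other step is stated there. The deposited counts cover 32285 gene rows (40 merged by symbol) and 10 tag rows. The matrices number the tags and the deposited key lists them by sequence, so tags were joined to mice by their order in the key, which no file states. Among first-day blocks, tags 1 to 5 led only kidney blocks and 6 to 10 only spleen blocks, as the key's order has it. This gave 5 mice of the first day. Cells sequenced on the second day stand under several mice at once (17523 entries for 2399 cells) and were not compared. Cells led by another tag (13), under 200 genes or with 10% or more mitochondrial UMIs were left out. Doublets were not called. Only those of unlike tags could be seen. Receptor sequencing was not analysed here, and values of a few genes are not reported here.

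The members, gene lists and tests were chosen with earlier results of these data known. Counts were summed per mouse, organ and class and tested with edgeR 4.0.16 (R 4.3.3; TMM scaling, filterByExpr), with the mouse as a block because members and others share the animal. The edgeR fits were tested on simulated data. DESeq2 1.42.0 was an alternative. The 6 genes of the rule and the 4 other label markers were left out of the counts of calls. CPM was computed from each sum's total. Planned sums of at least 10 members left 2 mice per organ with 1 residual degree of freedom, so fits over all 5 mice were added after seeing the counts. Named genes were the 10 largest rises and falls that went the same way in every mouse with at least 20 CPM, and up to 4 per list with the smallest p. Tcrg-V1, Igkc and the genes listed as shared were named after their values were seen. Shares used exact tests in scipy 1.17.1.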

Additional observations from a re-analysis of the deposited data

Results flagged for a closer look

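The kidney of WT1 stood out from the kidneys of the other 4 mice, with 5.77% of its cells in the group. Its gap to the next mouse was 0.726 of the whole range, above the critical value of 0.710 for 5 samples. The spleen shares did not stand out (0.181). By chance about 1 in 20 groups would be marked in this way. WT1 members had a median of 4487.5 UMIs against 3458 in its other kidney cells.

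The difference between members and others differed between organs for 4 genes (edgeR interaction term). S100a8 (adjusted p = 3.67e-27) and S100a9 (adjusted p = 6.18e-33) were at 2754 and 4841 CPM in the kidney members of KO2 and at 0 in all other members of both organs. Cenpf (adjusted p = 0.00180) and Ube2c (adjusted p = 0.00748) rested on the 5 spleen members of WT3, with 20 and 29 UMIs, or 671 and 973 CPM.

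The rule also found cells in data that entered no comparison. Of 2392 second-day cells kept, 19 met it (0.794%, exact 95% interval 0.479 to 1.24%). They could not be given to a mouse or organ.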

How the results depend on the processing

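The kidney excess over spleen in the share of members kept its direction under every alternative run, and the share comparison of genotypes in kidney reversed to 0.456 points without WT1, in a range of -2.26 to 0.456 over the mice left out. Counts of called genes moved most. DESeq2 called 11 kidney and 4 spleen genes in the 2-mouse fits, 46 and 50 with 5 mice, and 0 in the interaction. Without cells of other types, as planned, the counts were 106 (kidney) and 11 (spleen) with 2 mice, 66 and 89 with 5, 0 in the interaction and 6 between kidney and spleen members. That rule marked 44.5% of the other cells, since T cells here hold Ehd3, Ass1, Pecam1 and Igfbp7, and with these genes not counted the kidney counts were 136 (2 mice) and 117 (5 mice), the spleen counts 40 and 118, the interaction count 5 and the count between organs 34. Without the replicate block the 2-mouse fits called 1 and 0 genes and the 5-mouse spleen fit 44. The spleen count was 137 with 5 mice against 59. Without the filter on low counts, 7 genes were called between kidney and spleen members and 15 between genotypes in kidney. Leaving out 1 mouse gave 61 to 160 in kidney (68 without WT1, 61 without WT3), 26 to 175 in spleen (26 without WT1, 60 without KO2, 70 without WT3, 80 without KO1), 2 to 8 in the interaction, 8 to 38 between organs, and 0 to 20 (20 without KO1) and 0 to 1 between genotypes in kidney and spleen. It could not be done in the 2-mouse fits. Of values for named genes, 1457 kept their side of the threshold, 351 lost their call, 33 gained one and 2 reversed: S100a4 in kidney with 5 mice, without WT3 (-0.20, in a range of -0.20 to 0.52), and Ccl4 in spleen (0.039 in the 2-mouse fit with the 4 excluded genes absent from the others). Apart from these constructions, the cause of each change was not tested. Depth limits the KO members, whose kidney sums held 23987 and 11982 UMIs.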

Other observations

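The T cell receptor segments seen in the 5′ counts were spread over many genes. Of the 94 kidney members of WT1, 78 held a Trbv segment, over 15 different ones, the most frequent being Trbv13-2 with 12 cells (15.4%) and Trbv19 with 11 (14.1%). The other kidney cells of WT1 had Trbv13-2 in 16.4% and Trbv19 in 14.2%. A Trav segment was found in 70 of the members, over 36 segments, with Trav9-1 the most frequent (6 cells, 8.57%). In the kidney of WT3, 12 members held 8 different Trbv segments, and in the spleen of WT1, 14 held 10.

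Tcrg-V1, a variable segment of the gamma chain, was higher in the members in both organs, by 2.72 ± 0.60 in kidney and 3.89 ± 0.65 in spleen (edgeR adjusted p = 0.000968 and 2.86e-06). It rested on 22 kidney and 12 spleen UMIs, with 208, 0, 27.7, 0 and 52.0 CPM in the kidney members of KO1, KO2, WT1, WT2 and WT3 against 16.7, 9.01, 8.49, 0.165 and 1.47 CPM in the others. The delta chain gene Trdc had 1 UMI among all members.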
